A study of Mus musculus with 15 samples.

Results

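The genes described here encode the eukaryotic translation initiation factors, the proteins that bring the ribosome, the initiator tRNA and an mRNA together at a start codon. They were taken as all gene names on the array that begin with Eif and a digit between 1 and 6, leaving out the eIF2 kinases and pseudogenes, which gave 54 of 34816 gene names. They were read by 88 probes, and 31 of the 54 genes had 1 probe. Each gene is represented by its brightest probe, and all 54 genes were tested, because each was well above background on 5 arrays or more out of 15. Eif2c1, Eif2c2, Eif2c3 and Eif2c4 are old names of the Argonaute genes Ago1 to Ago4, whose proteins act in RNA silencing and are not initiation factors, so values are also given without these 4 genes.

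One-colour arrays recorded the transcripts of CD4 T lymphocytes that had been sorted by flow cytometry from small intestinal lamina propria, the connective tissue under the gut epithelium. The male mice were on a high-fat diet (HFD) for 30 days, on the same diet for 10 days, or on normal chow (control), with 5 arrays in each of the 3 groups. Per the labels, RNA was amplified with SuperAmp, a commercial method for small samples whose procedure was not disclosed, before 250 ng of cDNA was labelled with Cy3. The labels give no strain or age, no day for the controls, and no word on whether the 5 samples of each group are 5 mice. The p-values therefore measure the spread among these samples, possibly a technical one, and days on diet cannot be told apart from age or time in the experiment.

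Initiation begins when eIF2, bound to GTP, carries the initiator tRNA to the small ribosomal subunit, together with eIF1, eIF1A, eIF5 and the large scaffold eIF3. The eIF4 factors bind the mRNA cap and unwind the leader, eIF5B joins the large subunit, and eIF2B recharges eIF2 with GTP so that it can be used again. T cells are known to raise protein synthesis when activated, and its rate is set in part by the phosphorylation of eIF2 and the binding of eIF4E by the 4E-BP proteins, neither of which an mRNA array measures.

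The probes on which the findings turn are shown first, because for several genes the value depended on which probe was read. The array design places them on mouse build mm9, and each is written 5′ to 3′ as the array file gives it. For Eif2s2 the brightest probe lies at chr2:154698193-154698252 and the other 1040 bases downstream at chr2:154697153-154697212, both on the minus strand. For Eif2b3 the brightest probe lies at chr4:116739087-116739146 and the other 7689 bases upstream at chr4:116731398-116731457, both on the plus strand. The single Eif3g probe lies at chr9:20699095-20699154 on the minus strand. The 2 Eif2d probes lie on the plus strand of chromosome 1, the brightest at chr1:133064757-133064816 and the other at chr1:133064801-133067556, an interval longer than the probe, so that it crosses a gap in its genome alignment. Capitals mark the 16 bases that the Eif2d probes share, and no further probe shared a run of 10 bases or more with the brightest probe of its gene.
Eif2s2 brightest probe: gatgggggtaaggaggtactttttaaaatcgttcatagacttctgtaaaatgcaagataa
Eif2s2 other probe: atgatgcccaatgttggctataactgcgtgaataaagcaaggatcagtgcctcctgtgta
Eif2b3 brightest probe: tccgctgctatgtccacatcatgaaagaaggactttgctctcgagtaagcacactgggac
Eif2b3 other probe: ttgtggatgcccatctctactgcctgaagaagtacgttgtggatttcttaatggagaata
Eif3g single probe: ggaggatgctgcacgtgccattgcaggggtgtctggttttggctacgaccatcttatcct
Eif2d brightest probe: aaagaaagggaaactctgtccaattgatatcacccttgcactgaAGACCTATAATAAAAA
Eif2d other probe: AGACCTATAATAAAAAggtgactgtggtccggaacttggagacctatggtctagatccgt

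A level below is log2 of the processed spot intensity minus the 75th percentile of its array, so that 0 is a spot as bright as that percentile, and a difference is the first group's mean level minus the second's. Spots well above background made up 51.3% ± 5.48 at day 30, 58.5% ± 2.91 at day 10 and 63.8% ± 12.0 in control (SD, n = 5 each), with the highest value, 82.0%, in control replicate 1. All control arrays and day 10 replicates 1 to 3 shared slide 1. Day 10 replicates 4 and 5 and all day 30 arrays shared slide 2, so day 30 and control never met on a slide. A slide effect could therefore be estimated only from day 10 replicates 1 to 3 against 4 and 5. Values given below with slide as a block rest on that contrast. All 8 CD4 T cell markers examined, among them Cd4, Cd3e and Lck, passed that limit on every array. Of 8 epithelial markers, 2 were so on every day 30 array, 3 on every day 10 array and 6 on every control array, and their mean level per array ran from -1.94 to -0.51, from -2.14 to -0.08 and from -1.55 to -0.37 in the same groups. Of 8 markers each, 4, 5 and 5 of the CD8, NK and cytotoxic list, 3, 3 and 4 of the B lineage list and 3, 3 and 3 of the myeloid list were well above background on every array of day 30, day 10 and control. In the B lineage list, Pax5, Cd22 and Jchain were well above background on all 15 arrays, and Ms4a1 on none. The part of such RNA in the results was not tested. In these bulk samples, fewer cells of a type and less RNA per cell cannot be told apart.

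No initiation factor gene passed the test in any of the 3 comparisons. At an adjusted p under 0.05, limma called 0 of the 54 genes and 0 of all 25997 genes tested in each comparison, a background of 0%. The smallest adjusted p among the 54 genes was 0.923 between day 30 and control, 1 between day 10 and control and 0.657 between the diet times, beside 0.387, 0.685 and 0.411 over all genes. Before adjustment, 2 of the 54 genes (3.70%) had p under 0.05 in each comparison. Over all genes that share was 5.21% between day 30 and control, 2.61% between day 10 and control and 4.12% between the diet times, so the counts of initiation factor genes lay near the background. Both genes were higher at day 30 than in control (2.50% of all genes higher, 2.72% lower), 1 was higher and 1 lower at day 10 than in control (0.892% and 1.72%), and 1 was higher and 1 lower at day 30 than at day 10 (1.82% and 2.30%). The plot of differences by role shows the 3 genes that reached this level, Eif2s2 in all 3 comparisons, Eif3g in both comparisons with control and Eif4h between the diet times.

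**Figure D1:**
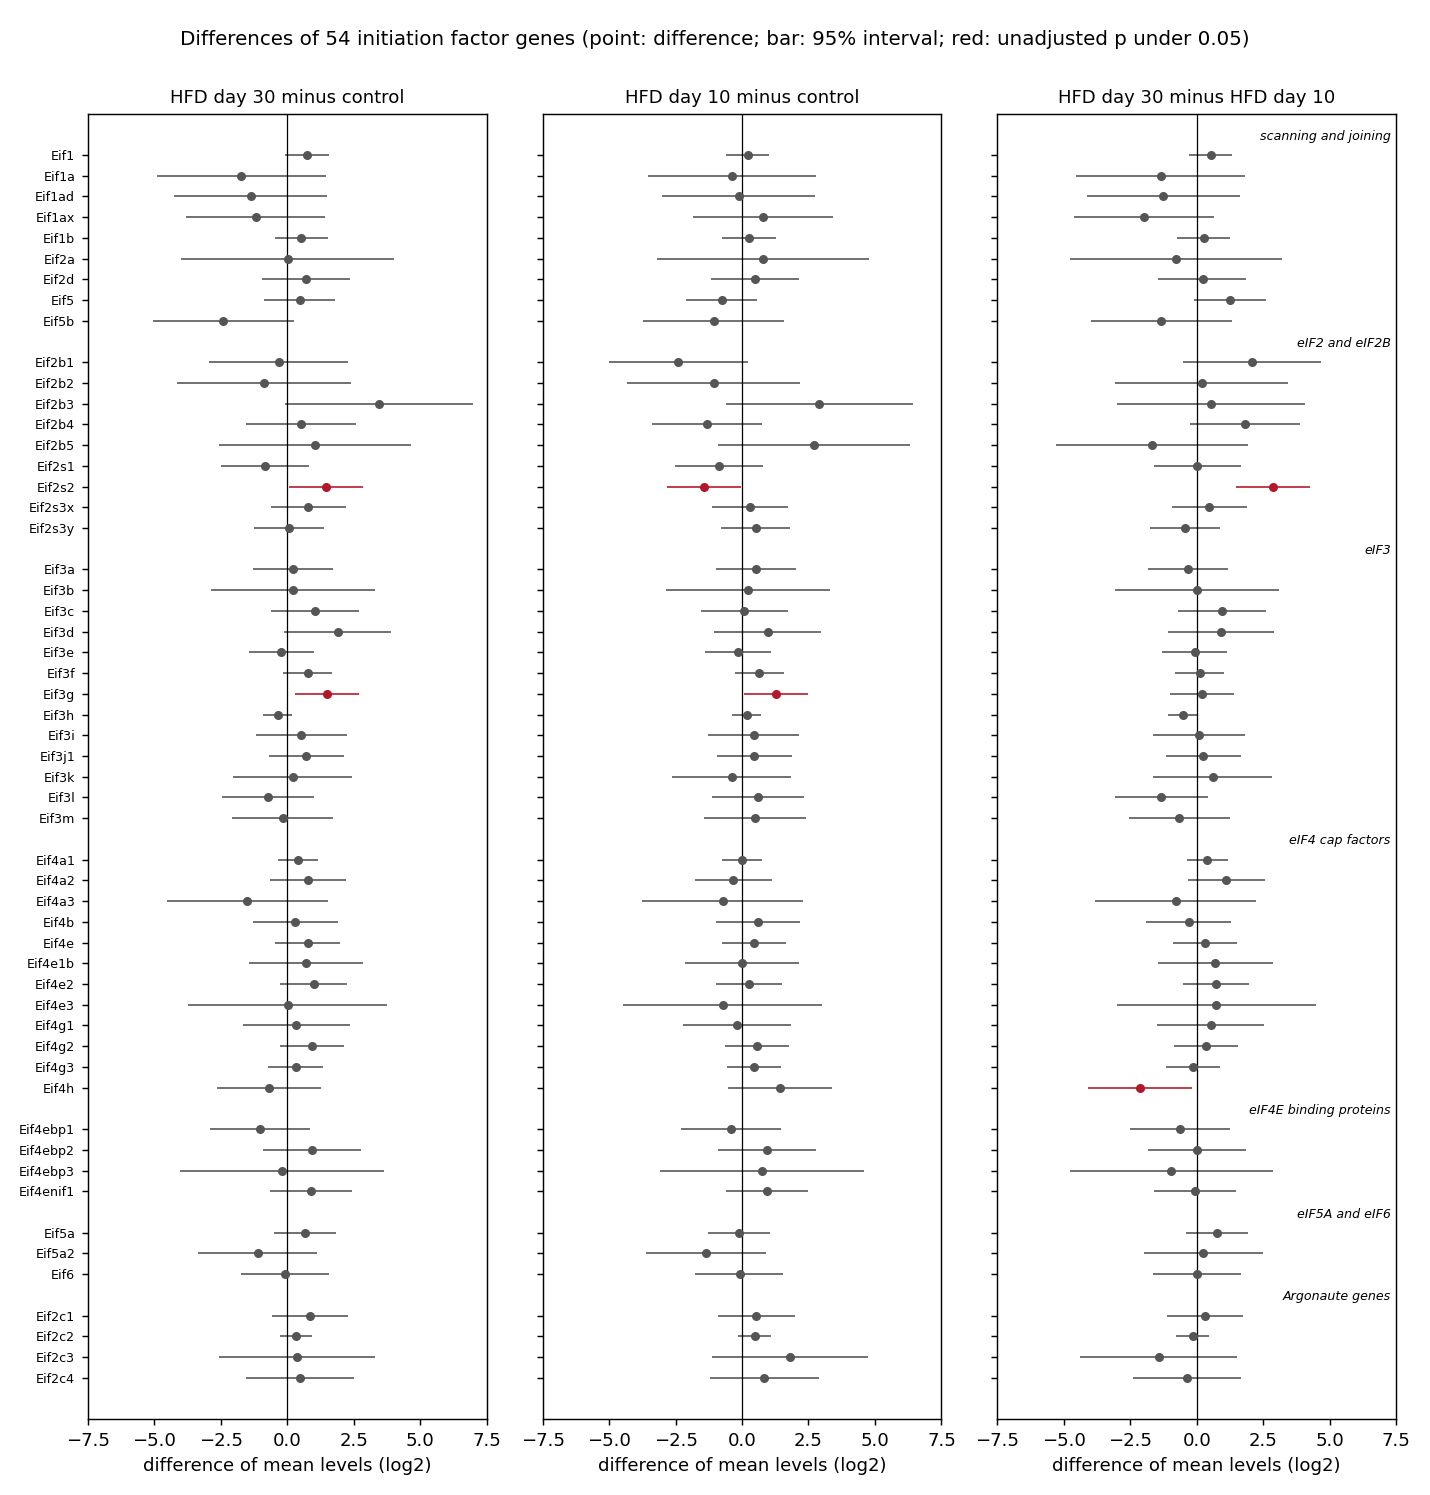
Difference of mean level (log2, horizontal axis) of each of the 54 genes, grouped by role, for day 30 minus control, day 10 minus control and day 30 minus day 10. Points are differences, bars are 95% confidence intervals from limma, and red marks unadjusted p under 0.05, which 2 genes reach in each panel.

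The precision of the arrays sets the size that could be seen. Across the 54 genes the SD within a group had a median of 1.26 at day 30, 0.97 at day 10 and 1.27 in control. It exceeded 2 log2 units in 17 genes at day 30, 11 at day 10 and 8 in control. The standard error of a difference ran from 0.26 for Eif3h to 1.88 for Eif2a, with a median of 0.80. Differences of more than 1 log2 unit were found in 13 of the 54 genes between day 30 and control, 11 between day 10 and control and 13 between the diet times, and 2 of them in each comparison had unadjusted p under 0.05.

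More of the 54 genes were above 0 than below it in each comparison, without that split holding under every scaling. Day 30 exceeded control in 37 genes and was lower in 17, with a median difference of 0.36, against -0.005 over all genes, of which 49.8% were above 0. Day 10 exceeded control in 35 genes and was lower in 19, with a median of 0.29, against -0.007 over all genes, of which 49.5% were above 0. For day 30 against day 10 the split was 32 to 22 and the median 0.11, against 0.051 over all genes, of which 52.8% were above 0. Without the 4 Argonaute genes the medians were 0.33, 0.23 and 0.15. When each array was scaled on the probes well above background on all arrays, which moves the median of all genes to -0.40, the median for day 30 against control was -0.04 with 26 genes above 0. With the deposited table it was -0.03, with 22 of 51 genes above 0, beside -0.24 over all genes. For day 30 against day 10 those scalings and quantile normalization gave medians of -0.21, -0.19 and -0.08, with 19, 16 and 23 genes above 0.

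The array with the lowest values weighed on these medians. On control replicate 1 the 54 genes lay at a median of -1.06 from their own means over the 15 arrays, while the other arrays lay between -0.27 and 0.67. That array also had the highest share of spots well above background. Without it the median was 0.10 for day 30 against control, with 30 genes above 0, and -0.10 for day 10 against control, with 25 genes above 0. When this share entered the fit as a covariate, the median for day 30 against control was -0.22, with 20 genes above 0, and for day 30 against day 10 it was -0.34, with 18 above 0. The part of the detection share in the differences was not tested further.

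**Figure D2:**
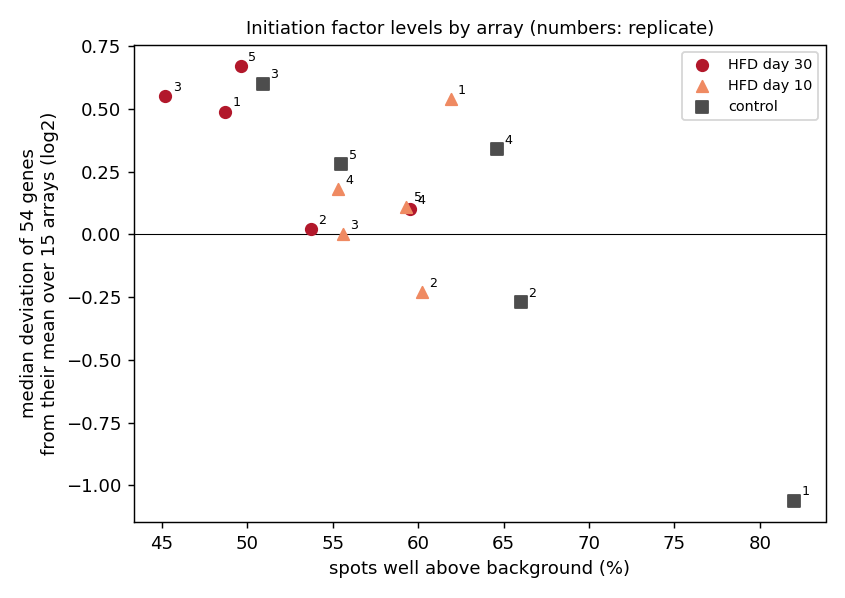
Median deviation of the 54 genes from their means over 15 arrays (log2, vertical axis) against the share of spots well above background on the array (%, horizontal axis), with 1 point per array labelled by replicate number. Control replicate 1 stands apart at 82.0% and -1.06, and the day 30 arrays lie between 45.2% and 59.5% with deviations from 0.02 to 0.67.

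The eIF2 and eIF2B genes held the largest difference of the comparison between the 2 diet times. eIF2 is a trimer of an alpha subunit (Eif2s1), which carries the regulatory phosphorylation site, a beta subunit (Eif2s2) and a gamma subunit (Eif2s3x on the X and Eif2s3y on the Y chromosome), and eIF2B is built of 5 subunits (Eif2b1 to Eif2b5). Of these 9 genes, 6 were above 0 between day 30 and control, 4 between day 10 and control and 7 between the diet times, with medians of 0.50, -0.86 and 0.48.

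Eif2s2 had levels of 3.57, 2.57, 3.59, 1.74 and 2.15 on the day 30 arrays, -0.06, -1.72, 0.62, 1.02 and -0.63 on the day 10 arrays, and -0.45, 1.56, 3.01, 1.14 and 1.10 on the control arrays. Every day 30 array lay above every day 10 array, and the control arrays spread across both. The difference between day 30 and day 10 was 2.88 (SE 0.66, 95% interval 1.49 to 4.27), a 7.35-fold higher mean signal at day 30, with an unadjusted limma p of 0.000459 and an adjusted p of 0.657. Only 0.1% of all genes tested had a p as small. It kept its sign and an unadjusted p under 0.05 in each of 23 alternative analyses, with values from 1.53 to 3.17. Within slide 2, where day 10 replicates 4 and 5 met all day 30 arrays, it was 2.53. Against control the same probe gave 1.45 at day 30 (unadjusted p 0.0417) and -1.43 at day 10 (unadjusted p 0.0451). With slide as a block the day 30 value against control was 0.87 (unadjusted p 0.472), and with the share of detected spots in the fit it was 0.15. The 3 comparisons share their arrays in pairs, so these values are not independent of each other.

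The other Eif2s2 probe did not show this pattern. Its levels were -1.02, 0.64, -4.86, 1.27 and 0.05 at day 30, 1.16, -3.81, -1.15, -0.01 and -1.70 at day 10, and -1.62, -1.07, -1.60, -1.77 and -1.95 in control, so that the groups overlapped between day 30 and day 10. It gave a difference of 0.31 between day 30 and day 10, 0.82 between day 30 and control and 0.50 between day 10 and control, the last of opposite sign to the brightest probe. It was well above background on 13 arrays, and its correlation with the brightest probe over the 15 arrays was 0.06. With the probes of each gene averaged, Eif2s2 differed by 1.60 between day 30 and day 10 (unadjusted p 0.0283).

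Eif2s2 and Eif4a2 were the 2 genes of 54 (3.70%) whose day 30 arrays all lay above all day 10 arrays, beside 0.288% of all genes (0.581% counting either direction), and for no gene of the 54 did either diet group lie apart from control. The backgrounds for those were 0.646% for day 30 and 0.427% for day 10.

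The alpha subunit, Eif2s1, averaged 0.09 ± 0.85 at day 30, 0.06 ± 1.89 at day 10 and 0.92 ± 0.78 in control (SD, n = 5 each). The groups overlapped, and the differences were -0.83 (95% interval -2.48 to 0.82) for day 30 against control and -0.86 (-2.51 to 0.79) for day 10 against control. With slide as a block, Eif2s1 at day 30 was 1.19 above control, the opposite sign. The slide effect there came from the day 10 arrays alone, among which replicate 5 was at -3.13. Without day 10 replicate 5, the Eif2s1 difference at day 10 was -0.06. The gamma subunit on the X chromosome, Eif2s3x, differed by 0.79 and 0.31 from control, and its copy on the Y chromosome, Eif2s3y, by 0.07 and 0.52. Of the 4 eIF2 genes, only that of the beta subunit had an unadjusted p under 0.05 between day 10 and control.

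Eif2b3 encodes the gamma subunit of eIF2B, which with the epsilon subunit (Eif2b5) forms its catalytic part. Its levels were -0.57, -0.69, 2.65, 1.72 and -5.85 at day 30, 1.42, -0.57, 0.11, -6.38 and 0.03 at day 10, and -0.83, -6.47, -4.18, -2.47 and -5.99 in control. In each diet group 4 of 5 arrays lay above all control arrays, and the fifth lay at the low end of the control range. The probe was well above background on 4 day 30 arrays, 4 day 10 arrays and 2 control arrays. The difference from control was 3.44 (SE 1.67, unadjusted p 0.0555) at day 30 and 2.91 (unadjusted p 0.0999) at day 10, both with an interval that held 0. The other Eif2b3 probe had the same sign, with 2.38 and 1.46, and its correlation with the brightest probe was 0.49. Control and day 30 shared no slide, and in the deposited table, which leaves out spots near background, the day 30 difference was 0.45.

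The remaining eIF2B subunits gave wide intervals. Eif2b5 averaged 0.83 ± 3.52 at day 30, 2.50 ± 0.51 at day 10 and -0.22 ± 3.92 in control, and its difference from control was 2.71 (95% interval -0.90 to 6.32) at day 10 and 1.04 (-2.57 to 4.65) at day 30. All 5 day 10 arrays lay within the wide control range. Eif2b1, the alpha subunit, averaged 0.67 ± 3.01 at day 30, -1.41 ± 2.11 at day 10 and 1.00 ± 0.65 in control. For this gene day 10 differed from control by -2.41 (unadjusted limma p 0.0686) and day 30 from day 10 by 2.08 (unadjusted p 0.111). Eif2b4, the delta subunit, averaged 0.76 ± 2.26 at day 30, -1.07 ± 1.61 at day 10 and 0.25 ± 0.75 in control (SD, n = 5 each for these 3 genes). Its day 30 mean differed from day 10 by 1.83 (unadjusted limma p 0.0795), and day 10 from control by -1.32 (unadjusted p 0.194). Eif2b2 was well above background on 7 of the 15 arrays and is not described further.

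A group of 9 genes held the factors of scanning, subunit joining and alternative initiator tRNA delivery, with Eif1ad counted here by its name. Among them, 5 were above 0 in each comparison with control and 4 between the diet times. The medians were 0.01 and 0.21 at day 30 and day 10 relative to control, and -0.79 between these times. None had an unadjusted p under 0.05.

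Eif1 encodes the small factor that helps the ribosome to reject wrong start codons. Its levels were 6.65, 5.19, 6.80, 6.23 and 6.26 at day 30, 5.38, 5.35, 6.73, 5.17 and 5.91 at day 10, and 4.29, 5.98, 5.72, 5.83 and 5.65 in control. The lowest value was that of control replicate 1, and 4 of 5 day 30 arrays lay above all control arrays. The difference between day 30 and control was 0.73 (95% interval -0.09 to 1.55, unadjusted p 0.0785). It was 0.43 without control replicate 1 and -0.03 in the deposited table. The second Eif1 probe gave 0.27.

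Eif5, whose protein makes eIF2 hydrolyse its GTP once the start codon is found, averaged 3.41 ± 0.71 at day 30, 2.17 ± 1.16 at day 10 and 2.94 ± 1.27 in control (SD, n = 5 each). Day 30 differed from day 10 by 1.24 (unadjusted p 0.0686) on overlapping groups, by 2.11 within slide 2 (unadjusted p 0.0137) and by 0.44 in the deposited values (unadjusted p 0.278). Its second probe, well above background on 15 arrays and correlated with the brightest at 0.22, gave -0.08. Eif1ax, an X-linked gene for eIF1A, averaged -2.13 ± 3.54 at day 30, -0.15 ± 0.40 at day 10 and -0.94 ± 0.97 in control (SD, n = 5 each). It was well above background on 3 day 30 arrays and on every day 10 and control array. At day 30, replicate 3 lay above the other groups at 2.39, and the lowest values, -5.59 and -5.89, were not well above background. The Eif1ax difference between day 30 and day 10 was -1.98 (95% interval -4.60 to 0.64).

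Eif5b, the factor that joins the large ribosomal subunit, was well above background on 0 day 30, 2 day 10 and 4 control arrays. Its measured levels were -5.58, -6.17, -5.11, -4.17 and -5.89 at day 30, -1.17, -6.04, -5.64, -6.46 and -0.97 at day 10, and -3.49, -1.49, -3.59, -0.30 and -6.06 in control. At day 30 these levels are only bounds, and 4 of 5 control arrays lay above all of them. Taken against the lowest signal well above background on each array, Eif5b was at least 1.49-fold lower at day 30 than in control, with an adjusted limma p of 0.923 and an unadjusted p of 0.072. The lowest signal well above background differed between arrays, and a bound against day 10 could not be formed.

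**Figure D3:**
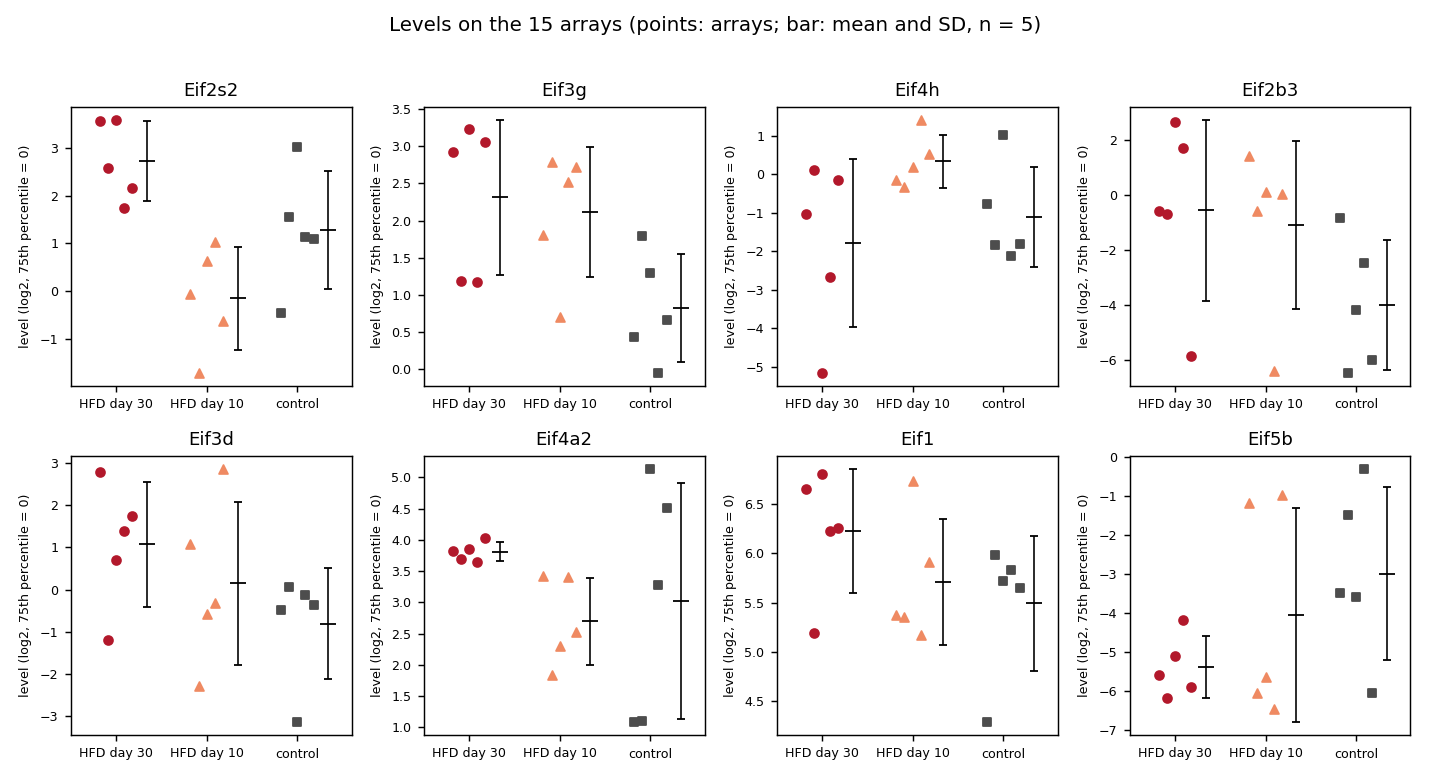
Levels (log2 relative to the 75th percentile of the array, vertical axis) of 8 genes on the 5 arrays of each group, day 30, day 10 and control from left to right. Points are arrays and bars are the mean with SD. For Eif2s2 the day 30 points, between 1.74 and 3.59, lie above the day 10 points, between -1.72 and 1.02, and in the other panels except Eif4a2 the groups overlap in each comparison.

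The subunits of eIF3, the largest initiation factor, form the platform on which the small ribosomal subunit binds the other factors. By their brightest probes they were the genes most often detected, with 12 of 13 well above background on all arrays. Further probes of eIF3 genes correlated with the brightest from -0.08 for Eif3j1 to 0.91 for Eif3k. Relative to control, 9 of the 13 were above 0 at day 30 with a median of 0.22, and 11 at day 10 with a median of 0.47. Between the diet times 8 were above 0 with a median of 0.09. Scaling on the commonly detected probes left 6, 11 and 3 of them above 0, and the authors' deposited values left 6, 9 and 3. For day 30 against control the count over all alternatives ran from 4 to 11. The lowest came with the share of detected spots as a covariate, the highest without control replicate 3.

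Eif3g encodes an RNA-binding subunit that takes part in scanning. Its levels were 2.92, 1.19, 3.23, 1.17 and 3.06 at day 30, 1.81, 2.79, 0.71, 2.52 and 2.72 at day 10, and 0.43, 1.79, 1.30, -0.05 and 0.67 in control. At day 30, 3 arrays lay well above all controls and 2 within the control range, and at day 10, 3 arrays lay well above, replicate 1 just above the highest control and replicate 3 within the range. The difference from control was 1.49 at day 30 (SE 0.56, 95% interval 0.29 to 2.68, 2.80-fold, unadjusted p 0.0179, adjusted p 0.923) and 1.28 at day 10 (SE 0.56, 0.09 to 2.48, 2.44-fold, unadjusted p 0.0367, adjusted p 1). Both use the same control arrays. With slide as a block the values were 0.64 (unadjusted p 0.53) and 0.94 (unadjusted p 0.167), and within slide 1 the day 10 value was 0.94 (unadjusted p 0.177). In the deposited table they were 0.48 and 0.72. The gene has 1 probe, so no second reading exists, and its day 30 and day 10 means differed by 0.20.

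Eif3d encodes the subunit that can bind the cap of some mRNAs. Its levels were 2.78, -1.20, 0.69, 1.39 and 1.73 at day 30, 1.09, -2.28, -0.58, -0.33 and 2.86 at day 10, and -0.48, 0.07, -3.14, -0.12 and -0.37 in control. At day 30, 4 of 5 arrays lay above all controls and replicate 2 below 4 of them. The difference between day 30 and control was 1.89 (95% interval -0.11 to 3.89, unadjusted p 0.0629). With slide as a block it was 0.03, but the slide effect there came only from the day 10 arrays, which spread from -2.28 to 2.86.

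Eif3h, a subunit that budding yeast lacks, had the smallest standard error of the 54 genes. Its levels were 5.25, 5.16, 4.23, 4.59 and 4.84 at day 30, 5.54, 5.16, 5.35, 5.22 and 5.41 at day 10, and 5.04, 4.76, 5.76, 4.87 and 5.44 in control. The day 10 arrays were tightly grouped, and day 30 lay at or below their lower end for 4 of 5 arrays. Day 30 differed from day 10 by -0.52 (95% interval -1.07 to 0.02, unadjusted p 0.0589), and by -0.84 when scaled on the commonly detected probes and -0.79 after quantile normalization (unadjusted p 0.00866 and 0.00958). Averaging its 2 probes, whose signs were opposite, gave -0.24 (unadjusted p 0.654).

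Eif3a, the largest subunit, averaged -1.21 ± 1.21 at day 30, -0.88 ± 0.55 at day 10 and -1.41 ± 1.24 in control (SD, n = 5 each), and its difference from control was 0.20 (95% interval -1.29 to 1.70) at day 30 and 0.53 (-0.96 to 2.03) at day 10. Eif3f averaged 4.02 ± 0.25, 3.90 ± 0.64 and 3.25 ± 0.98 in the same order of groups, with 0.77 (unadjusted p 0.0947) at day 30 and 0.65 (unadjusted p 0.152) at day 10. Its day 30 and day 10 arrays lay within or above the control range, which control replicate 1 extended down to 1.66. Eif3l averaged -0.43 ± 1.78 at day 30, 0.90 ± 1.09 at day 10 and 0.30 ± 1.07 in control, and day 30 differed from day 10 by -1.33 (unadjusted p 0.124). The differences of the other 7 subunits lay between the extremes of the 13, which were -0.73 and 1.89 at day 30 and -0.39 and 1.28 at day 10 relative to control, and -1.33 and 0.95 between the diet times.

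The cap-binding complex joins eIF4E, which holds the cap, the scaffold eIF4G and the RNA helicase eIF4A with its cofactors eIF4B and eIF4H. Of the 12 genes of this set, 10 were above 0 at day 30 and 8 at day 10 relative to control, and 8 between the diet times, with medians of 0.38, 0.14 and 0.38. Eif4a3, counted here by its name, encodes a helicase of the exon junction complex.

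Eif4h had levels of -1.04, 0.12, -5.17, -2.66 and -0.15 at day 30, -0.16, -0.32, 0.20, 1.42 and 0.54 at day 10, and -0.77, -1.84, 1.02, -2.13 and -1.80 in control. The 5 day 10 arrays were closely grouped, while day 30 spread widely and its replicate 3 was not well above background. Day 30 differed from day 10 by -2.12 (SE 0.92, 95% interval -4.07 to -0.16, unadjusted p 0.0354, adjusted p 0.999). Within slide 2 it was -2.76 (unadjusted p 0.0918), and leaving out 1 array at a time gave values from -2.59 to -1.27 with unadjusted p up to 0.114. Against control, Eif4h differed by 1.44 at day 10 and -0.68 at day 30. It has 1 probe.

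Eif4a2, a second eIF4A helicase, had levels of 3.83, 3.70, 3.85, 3.64 and 4.03 at day 30, 3.42, 1.83, 2.30, 3.40 and 2.52 at day 10, and 1.08, 1.10, 5.14, 3.28 and 4.51 in control. By the brightest probes the day 30 arrays were the most uniform of the 54 genes at that time, all above the day 10 arrays, while control spanned both. Day 30 differed from day 10 by 1.12 (95% interval -0.32 to 2.56), with an unadjusted p of 0.12 in a test that pools the spread over the 3 groups. A second Eif4a2 probe, also well above background on 15 arrays, gave a difference of 0.45, and its levels overlapped, with 2.67 to 4.39 at day 30 and 2.38 to 3.52 at day 10. Between day 10 and control the second probe gave 0.27 and the brightest -0.33. The main helicase gene, Eif4a1, averaged 3.20 ± 0.62 at day 30, 2.79 ± 0.35 at day 10 and 2.79 ± 0.45 in control (SD, n = 5 each), and its difference from control was 0.41 (95% interval -0.35 to 1.17) at day 30 and 0.01 (-0.75 to 0.77) at day 10.

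Eif4e, the cap-binding protein itself, had levels of 3.66, 1.58, 3.74, 1.62 and 1.31 at day 30, 2.33, 1.53, 2.00, 2.07 and 2.44 at day 10, and 0.31, 1.84, 2.04, 1.10 and 2.84 in control. At day 30, 2 arrays stood above all others and 3 lay within the control range. Its difference from control was 0.76 (95% interval -0.45 to 1.97) at day 30 and 0.45 (-0.76 to 1.66) at day 10, and its second probe gave -0.34 and -0.24. Eif4e2, a cap-binding homologue linked to repression of some mRNAs, averaged 4.08 ± 0.74 at day 30, 3.36 ± 0.73 at day 10 and 3.09 ± 1.39 in control (SD, n = 5 each), and day 30 differed from control by 0.99 (unadjusted p 0.114). With the share of detected spots in the fit, the Eif4e2 difference was -0.14. Its other probes, well above background on 6 and 8 arrays, gave 0.88 and -1.42 for day 30 against control. They correlated with the brightest at 0.09 and -0.01.

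The scaffold gene Eif4g1 averaged -0.09 ± 2.46 at day 30, -0.61 ± 0.94 at day 10 and -0.43 ± 0.89 in control, and its difference from control was 0.34 (95% interval -1.68 to 2.37) at day 30 and -0.18 (-2.20 to 1.85) at day 10. Eif4g2, which encodes a scaffold without the eIF4E-binding part, averaged 3.68 ± 0.56, 3.33 ± 0.38 and 2.76 ± 1.50 in the same groups (SD, n = 5 each), and day 30 differed from control by 0.92 (unadjusted p 0.123). With the share of detected spots in the fit it was -0.19. The control mean of Eif4g2 included a value of 0.36 on replicate 1, and without that array the difference was 0.32.

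The 4E-BP proteins bind eIF4E and keep it from eIF4G until mTOR phosphorylates them. Eif4ebp1 had levels of -3.66, -4.64, -4.95, -3.48 and 0.04 at day 30, -1.25, -2.93, -3.25, -2.96 and -3.08 at day 10, and -1.64, -2.05, -3.38, -3.33 and -1.09 in control. It was well above background on 1 day 30, 4 day 10 and 5 control arrays, and at day 30 the 4 others lay below every control array. The fifth, replicate 5, was the highest of all 15. The difference from control was -1.04 (95% interval -2.92 to 0.84) at day 30 and -0.40 (-2.28 to 1.48) at day 10. At day 30 the Eif4ebp1 difference was -1.88 without replicate 5 (unadjusted p 0.0191) and 0.04 after normexp background correction. Without replicate 5, no day 30 array was well above background. The day 30 side of the -1.88 and of its p-value therefore rests wholly on values that are only bounds. Eif4enif1, which encodes a protein that carries eIF4E into the nucleus, averaged -0.28 ± 0.53 at day 30, -0.21 ± 0.60 at day 10 and -1.16 ± 1.78 in control (SD, n = 5 each), with differences from control of 0.88 and 0.95. Without control replicate 1, which was at -4.27, the day 10 difference of Eif4enif1 was 0.17. Eif4ebp2 differed from control by 0.94 at day 30 and 0.93 at day 10, and Eif4ebp3 by -0.20 and 0.75.

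Eif5a encodes a factor that helps ribosomes past difficult peptide bonds and carries the modified amino acid hypusine, and Eif6 a factor that keeps the large subunit from joining too early. Eif5a averaged 3.37 ± 0.74 at day 30, 2.61 ± 1.20 at day 10 and 2.71 ± 0.71 in control (SD, n = 5 each). Its groups overlapped, with a difference from control of 0.66 (95% interval -0.51 to 1.84) at day 30 and -0.10 (-1.28 to 1.07) at day 10. Between the diet times Eif5a differed by 0.76 (unadjusted limma p 0.187). Eif6 averaged 2.13 ± 1.32, 2.11 ± 1.29 and 2.20 ± 1.40 in the same groups, and its differences from control were -0.08 (-1.73 to 1.58) and -0.09 (-1.75 to 1.56). Eif5a2 was well above background on 7 arrays and differed from control by -1.12 and -1.37.

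Among the Argonaute genes, all 4 were above 0 by their brightest probes in both comparisons with control, and 1 of 4 for day 30 against day 10. Eif2c3 and Eif2c4 were well above background on only 6 and 5 arrays, so their signs rest largely on values near background. Relative to control, the other Eif2c4 probe gave -0.72 at day 10 and -0.14 at day 30, the opposite sign. The other Eif2c1 probe kept the sign, with 1.29 and 1.25. Both of these probes were well above background on 5 arrays. Eif2c2 (Ago2), the slicing Argonaute, had levels of 4.63, 3.87, 4.85, 4.03 and 4.77 at day 30, 4.16, 4.19, 4.68, 4.51 and 5.37 at day 10, and 4.26, 4.11, 4.19, 3.79 and 4.17 in control. Control was tightly grouped, and day 10 lay within or above it. The difference from control was 0.48 (95% interval -0.14 to 1.09, unadjusted p 0.122) at day 10 and 0.32 (-0.29 to 0.94) at day 30. Another Eif2c2 probe gave the opposite sign at day 10.

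Probes of the same gene often disagreed. Of the 54 genes, 22 had more than 1 probe that passed the filter, and all passing probes had the same sign in 12 of them between day 30 and control, 7 between day 10 and control and 10 between the diet times. Over the 15 arrays, which share their scaling, the 32 other probes correlated with the brightest at a median of 0.11, from -0.50 to 0.95, and 10 of 32 (31.2%) were below 0. The same measure over 12384 other probes of all genes had a median of 0.31, with 23.1% below 0. The pairs that correlated above 0.5 were 5 in number, and the highest, 0.95, was that of the overlapping Eif2d probes shown above.

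Those Eif2d probes gave nearly the same readings. The brightest had 3.69, 0.92, 2.83, 1.73 and 3.75 at day 30, 3.09, 0.80, 2.47, 2.17 and 3.30 at day 10, and -0.92, 2.22, 3.51, 2.82 and 1.75 in control. The other had 3.34, 0.22, 2.43, 1.66 and 2.91 at day 30, 2.09, 0.86, 2.21, 2.01 and 3.27 at day 10, and -0.24, 2.24, 2.59, 2.19 and 1.69 in control. Relative to control their differences were 0.71 and 0.42 at day 30 and 0.49 and 0.40 at day 10, and between the diet times they were 0.22 and 0.02. Eif2d encodes a factor that can deliver initiator tRNA without eIF2. For this gene the same arrays were high and low on both probes.

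Eif3k, a small eIF3 subunit, had 3 probes. Its brightest probe and a probe 1163 bases away correlated at 0.91, with differences of 0.60 and 1.19 between day 30 and day 10. The remaining Eif3k probe, 9116 bases upstream of the brightest, correlated at 0.43 and gave 4.57, larger than the difference of any brightest probe of the 54 genes in that comparison. Its levels were 3.87, 3.67, 3.71, 3.68 and 3.30 at day 30, 3.39, 1.92, -5.64, -6.56 and 2.28 at day 10, and 0.05, -1.15, 3.64, 0.02 and 3.56 in control. At day 10, 2 arrays lay far below the rest and 3 lay close to the day 30 level or below it. That probe was well above background on 13 arrays, and it was not part of the test.

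The brightest probe was the most downstream one in 5 of the 23 genes with several probes. The longest run shared by probes of different genes of the 54 was 12 bases.

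**Figure D4:**
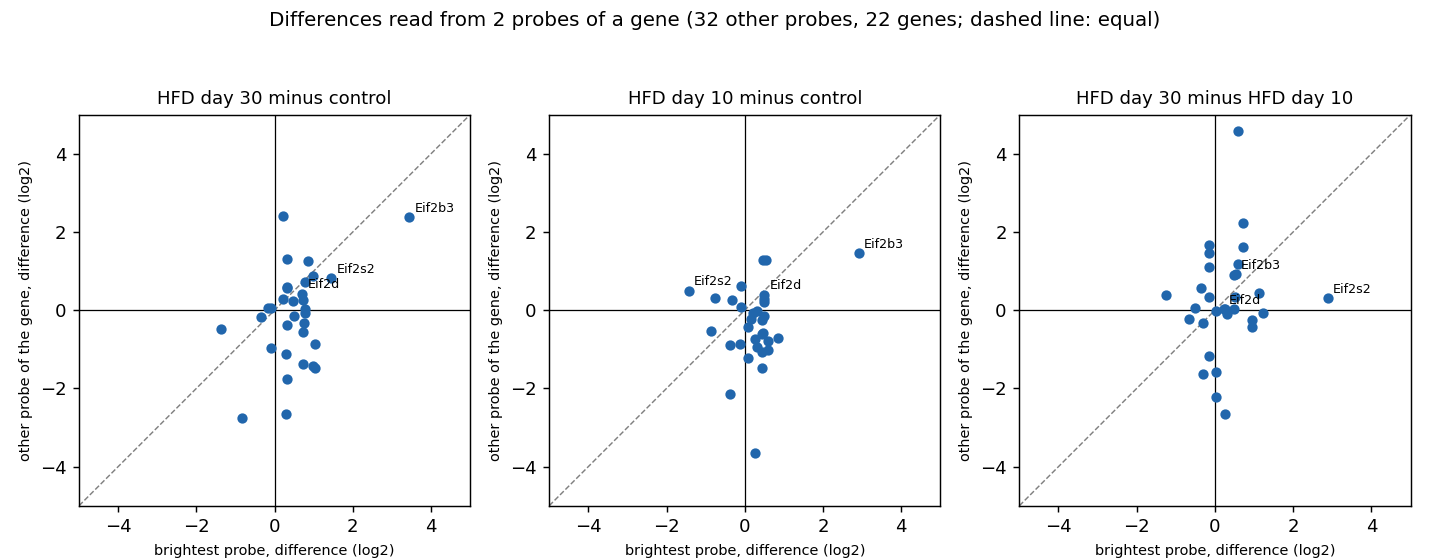
Difference read from each other probe (log2, vertical axis) against that of the brightest probe of the same gene (log2, horizontal axis), 32 probes of 22 genes, for day 30 minus control, day 10 minus control and day 30 minus day 10. Points on the dashed line would be equal, and points in the upper left and lower right of a panel have opposite signs, as Eif2s2 has for day 10 against control.

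Other genes of translation were examined beside the factors from a list of 41, which held the eIF2 kinases and phosphatase subunits, poly(A)-binding proteins and their partners, mTOR and its kinases, and elongation, release and mitochondrial initiation factors. Of these 40 were tested, since Eif2ak3 was too dim. The median difference was 0.54 between day 30 and control with 27 of 40 above 0, 0.24 between day 10 and control with 29 above 0, and 0.32 between the diet times with 27 above 0. At an unadjusted p under 0.05 there were 5 genes (12.5%) between day 30 and control, 3 higher and 2 lower, beside 5.21% of all genes, 2 (5.00%) for day 10 against control beside 2.61%, and 1 (2.50%) for day 30 against day 10 beside 4.12%. None had an adjusted p under 0.05.

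At day 30, Larp4, which encodes a poly(A)-tail-binding protein, averaged -3.57 ± 2.10, against -0.13 ± 0.85 in control (SD, n = 5 each). The difference was -3.44 (unadjusted limma p 0.00701). No day 30 array reached the control arrays, as for 1 of the 40 genes (2.50%), beside 0.646% of all genes in either direction. Larp4 was well above background on 11 arrays. Its day 30 mean lay near the lowest signal well above background, which ran from -3.95 to -2.90 on the day 30 arrays. A second Larp4 probe gave 1.48. Eef2, the elongation factor that moves the ribosome along the mRNA, averaged 6.64 ± 0.36 at day 30 and 5.84 ± 0.59 in control, a difference of 0.80 (unadjusted p 0.0127). Mcts2 differed by 1.59 (unadjusted p 0.0271), and Dhps, the enzyme that begins the hypusine modification of eIF5A, by 1.71 (unadjusted p 0.0366), while another Dhps probe gave -0.89. Mtif3, a mitochondrial initiation factor that was well above background on 11 arrays, differed from control by -2.89 at day 30 (unadjusted p 0.0227) and by -2.54 at day 10 (unadjusted p 0.0419). Paip2b, an inhibitor of poly(A)-binding protein, differed from control by 1.21 at day 10 (unadjusted p 0.034). All its day 10 arrays lay above the controls, as for 1 of the 40 genes (2.50%), beside 0.427% of all genes in either direction. The Larp4 difference between day 30 and day 10 was -2.82 (unadjusted p 0.0223). Each of these 8 differences kept its sign under every alternative run for it, but none kept an unadjusted p under 0.05 throughout. In the deposited values Eef2 differed by 0.09 (unadjusted p 0.511) and Mcts2 by 0.08 (unadjusted p 0.853). The lowest difference of Dhps was 0.41, and those nearest 0 for Larp4 and Mtif3 at day 30 were -0.84 and -0.69. Those nearest 0 at day 10 were -0.55 for Mtif3 and 0.66 for Paip2b, and for Larp4 between the diet times -0.92.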

How the data were processed

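Scanner files of 15 one-colour arrays (5 per group) were read. Per the file headers, the deposited linear intensity values were made with Agilent Feature Extraction 10.7.3.1, background subtracted within each array and not scaled between arrays, on a grid annotated with mm9; flags for spots well above background, saturation and outliers were taken as the authors deposited them. The authors also deposited a table of log2 values with 1 common distribution over its columns (median 5.51), ordered within an array as the mean intensity; its further processing is not stated in the sources used here. It served as an alternative. The labels' notes name the same software without a version.

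Here, spots of a probe were averaged after outlier spots and 1 damaged line were left out, each array's 75th percentile was subtracted on the log2 scale, each gene was represented by its brightest probe, and genes well above background on at least 5 of 15 arrays (25997 of 34816) were tested. The 3 group means were estimated together in limma 3.58.1 under R 4.3.3 (lmFit, eBayes with trend, two-sided), with Benjamini-Hochberg adjustment over all 25997 genes. In simulated data the script called 11% of genes changed by 2 log2 units and 51% of those changed by 4 for day 30 against control. No spot was saturated (0), and no 2 arrays looked like repeats. The number of arrays limits the precision.

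The genes described in full are the 10 of smallest p in each comparison plus 10 core factors, though not each of them in every comparison. The core factors are Eif2s1, Eif2b5, Eif1, Eif3a, Eif4e, Eif4a1, Eif4g1, Eif4ebp1, Eif5a and Eif6. Genes of the 41-gene translation list are named at an unadjusted p under 0.05. Other genes and probes named, such as Eif2d and Eif3k, were chosen after their values were seen. The members and lists were chosen with earlier results of these data known. Alternatives covered background correction (normexp, offset 50), scaling, filters, probe choice, slide, replicate number, the detection share and leaving out each array. Probe sequences come from the array files, and no genome was used.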

Additional observations from a re-analysis of the deposited data

Results flagged for a closer look

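Among the 28 genes described in full, 6 of 84 sets of 5 arrays held an array set apart from the other 4 by more than 0.71 of the range; chance gives this in about 1 in 20 sets. On day 10 replicate 4, Eif2b3 was at -6.38, and on day 30 replicate 2, Eif2b4 was at -3.16, each the lowest of its group. On control replicate 1, Eif4enif1 was at -4.27 and Eif1 at 4.29, both the lowest of the controls. On control replicate 3, Eif3d was at -3.14, again the lowest. On day 10 replicate 1, Eif4ebp1 was at -1.25, the highest of its group.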

How the results depend on the processing

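The count of the 54 genes at an adjusted p under 0.05 was 0 in each comparison and each alternative. At an unadjusted p under 0.05, 2 genes were counted in each comparison. For day 30 against control the count was 6 with slide as a random block and 1 with the share of detected spots as a covariate, and the median difference with that covariate was -0.22. For day 10 against control it was 1 with the mean of a gene's probes and 4 with dim values lifted to the array's detection limit. For day 30 against day 10 it was 5 with normexp, 1 with only genes well above background on all arrays, 5 with slide as a block, 4 within slide 2 and 4 with the covariate, with which the median was -0.34. The cause of these shifts was not tested. Leaving out 1 array at a time gave counts of 1 to 4, 0 to 3 and 1 to 6 for the 3 comparisons in this order, and medians of 0.10 to 0.47, -0.10 to 0.49 and 0.00 to 0.18. The count for day 10 against control was 0 without control replicate 5 or day 10 replicates 2 or 5. With replicate number as a replicate block the counts were 3, 1 and 1 and the medians 0.36, 0.29 and 0.11. Same-numbered arrays correlated between -0.13 and 0.15, so no pairing by number was seen, though weak correlations cannot exclude one. Of 57 named differences, 31 kept their sign under every alternative and 26 turned in at least 1; alternatives for the counts above 0 were added after seeing the data. Simulated differences of 2 log2 units were called in 11% of cases, so changes of that size could go uncalled.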
